A study of Mus musculus with 16 samples.

Results

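Levels of 10 genes that mark the subfields of the mouse hippocampus were followed through bulk RNA sequencing of 16 hippocampi. They were chosen by name, as genes known to mark the dentate gyrus (Prox1, Dsp, C1ql2 and Trpc6), CA1 (Fibcd1, Wfs1 and Mpped1) or CA2 (Rgs14, Amigo2 and Pcp4), and make up 10 of the 55335 genes in the count table. All 10 markers passed the filter on low counts and were among the 16475 genes tested. Markers of this kind are used to judge whether hippocampi were dissected in the same proportions.

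The study infused an inhibitor of stearoyl-CoA desaturase, the enzyme that makes monounsaturated fatty acids, or its vehicle into the lateral ventricle of female wild-type (WT) and 3xTg mice. WT mice were C57BL/6J x 129S1, and 3xTg mice carried Tg(APPSwe,tauP301L)1Lfa on a B6;129 background. The 3xTg line is an Alzheimer model whose genetic changes include the APPSwe and tauP301L transgenes, expressed in neurons from a Thy1.2 regulatory element. These changes and the breeding line cannot be told apart in these groups. All 16 mice were 10 months old, carried a pump for 28 days and received 0.8% DMSO in artificial cerebrospinal fluid. WT-D and 3xTg-D mice received this vehicle alone, and WT-S and 3xTg-S mice also received the inhibitor at 80 µM, with 4 mice per group. The treatment label names the inhibitor as SCDi Cayman 10566, and a growth or treatment text that is the same for every sample names another compound, ab142089.

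The hippocampus is built as a chain of fields. Granule cells of the dentate gyrus send mossy fibers to CA3, CA3 pyramidal cells project to CA1, and the small CA2 field lies between CA3 and CA1. Each field has its own set of transcription factors, receptors and adhesion molecules, and these serve as addresses in mixed tissue. In RNA from a whole hippocampus, fewer cells of a type and less RNA per cell cannot be told apart.

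Each library held 15413385 to 23590149 reads on genes, and levels are given as CPM, the read count scaled to library size. Thy1, whose regulatory element drives the transgenes, had 517 to 625 CPM in WT and 1566 to 2141 CPM in 3xTg mice. The mice WT-D4 and WT-S1 had summed levels of 7 choroid plexus genes (such as Ttr, encoding transthyretin) of 749 and 300 CPM, against 31.4 to 66.2 CPM in the other 14. Otx2 is part of this sum, although it did not pass the filter on low counts and was not tested. Reads outside annotated genes made up 7.82% to 15.1% of the total, the lowest in 3xTg-S2 and the highest in 3xTg-S4.

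All 10 markers were detected in every mouse, with between 179 and 4699 counts. Per kilobase of exon, so that genes of different length can be compared, the mean level over the 16 mice was highest for Mpped1, at 40.4 ± 4.45 CPM per kilobase (SD, n = 16). Wfs1 followed with 23.8 ± 4.19 and Fibcd1 with 21 ± 2.68 CPM per kilobase, and these neighbours changed places between mice, Wfs1 being higher in 11 of 16. Rgs14, Prox1, C1ql2 and Pcp4 had mean levels of 16.8, 14.6, 14.3 and 14.1 CPM per kilobase. Rgs14 lay below Fibcd1 in all 16 mice, but with the groups pooled these 4 genes were not separated from one another. The pooled mean of C1ql2 joins unlike genotypes. Its group means were 19.9 (WT-D), 19.3 (WT-S), 9.83 (3xTg-D) and 8.08 CPM per kilobase (3xTg-S). Those of Prox1, in the same order, were 15.6, 15.2, 13.7 and 13.9. C1ql2 thus lay above Prox1 in the WT means and below it in the 3xTg means. Amigo2 was lower than Pcp4 in all 16 mice, at 8.75 ± 1.11 CPM per kilobase. Dsp (5.08 ± 1.1) and Trpc6 (4.96 ± 0.599 CPM per kilobase) were lowest and did not differ beyond their spread. By mean level over the 16 mice, the 3 CA1 markers thus held the top of the order per kilobase.

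**Figure D1:**
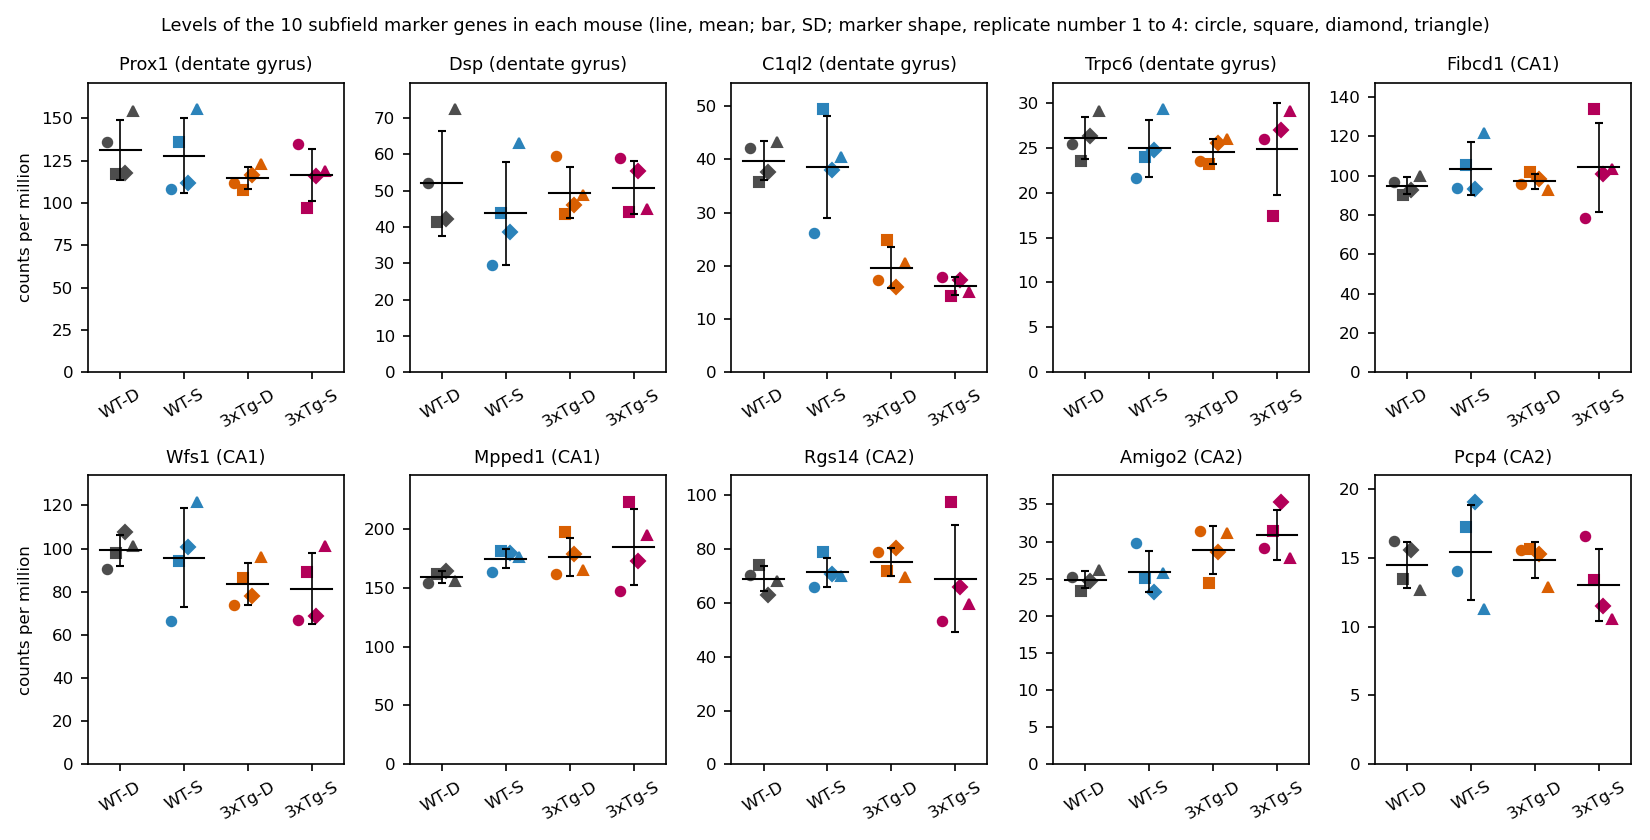
Level of each of the 10 markers in CPM (y axis) in each mouse, by group (x axis), with lines for the group mean and bars for the SD of 4 mice. C1ql2 is the one panel in which the 8 3xTg mice, at 14.3 to 24.8 CPM, lie below the 8 WT mice, at 26.2 to 49.4 CPM.

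At the study's threshold, an unadjusted p of 0.01 or less, 1 of the 10 markers (C1ql2) was called in WT-D vs 3xTg-D, where 4.91% of all tested genes were called. In WT-D vs 3xTg-S, 2 of 10 were called (C1ql2 and Amigo2), against 5.69% of all genes. In WT-S vs 3xTg-S it was 1 of 10 (C1ql2), against 4.26%. In 3xTg-D vs 3xTg-S, edgeR called 0 of 10, where 0.904% of all genes were called, and in WT-D vs WT-S 0 of 10, where 0.188% were. The interaction gave 0 of 10, against 0.595% of all genes. At an unadjusted p under 0.05 the edgeR counts in these last 3 tests were 0, 1 (Mpped1) and 0, and DESeq2 also called 0 of 10 at 0.01 in each. At an adjusted p of 0.05 or less, C1ql2 alone was called in WT-D vs 3xTg-D (1.85% of all genes), WT-D vs 3xTg-S (1.58%) and WT-S vs 3xTg-S (1.4%).

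**Figure D2:**
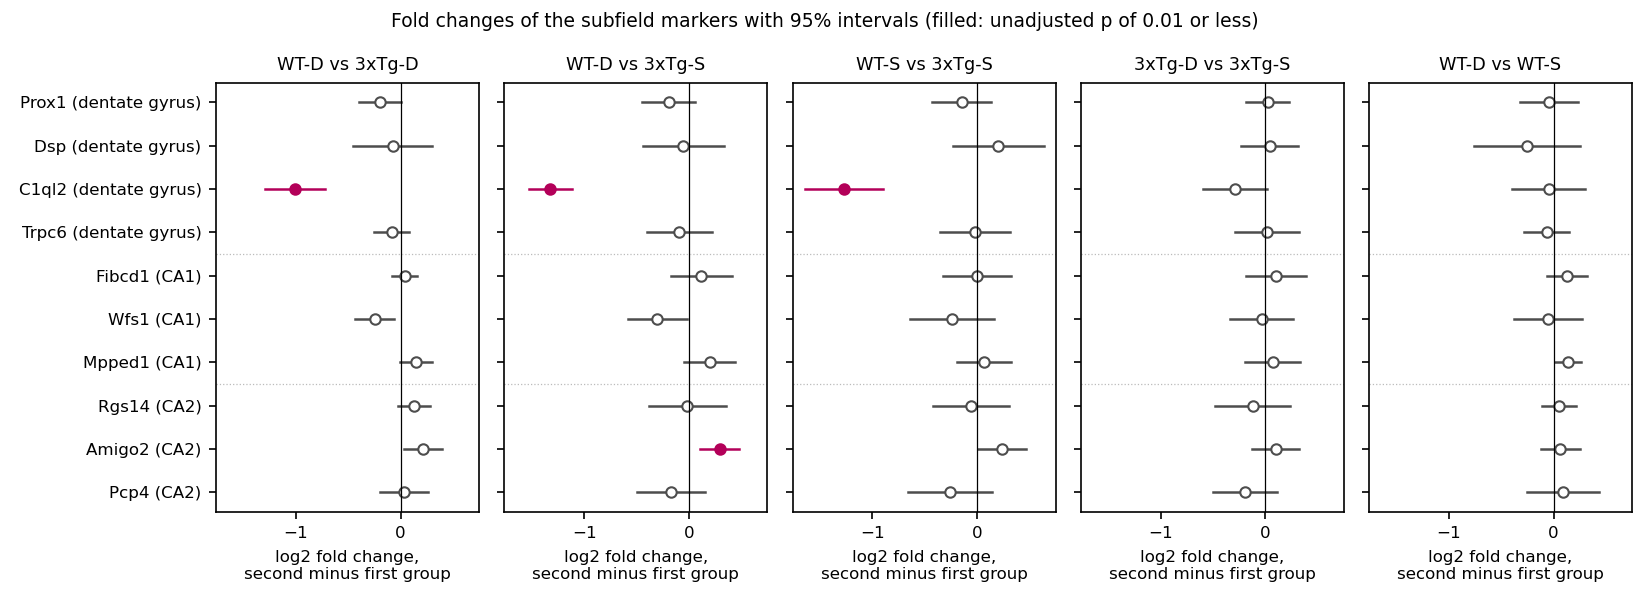
Log2 fold change of each marker (rows) with its 95% interval (bars) in 5 comparisons (panels), second group minus first. Filled points are at an unadjusted p of 0.01 or less, namely C1ql2 in 3 comparisons of genotypes and Amigo2 in WT-D vs 3xTg-S.

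C1ql2 encodes a secreted C1q-like protein that granule cells release at mossy fiber synapses, and it was lower in 3xTg mice. In WT-D mice its levels were 42.2, 35.7, 37.7 and 43.4 CPM, and in 3xTg-D mice 17.3, 24.8, 16 and 20.6 CPM. The 3xTg-D mice all lay below the WT-D mice. With the inhibitor, WT-S mice had 26.2, 49.4, 38.0 and 40.5 CPM and 3xTg-S mice 17.9, 14.3, 17.3 and 15.2 CPM. Here too the genotypes were separate, although WT-S1 lay close to the highest vehicle-infused 3xTg mouse. Group means were 39.7 ± 3.65 CPM for WT-D mice, 19.7 ± 3.93 for 3xTg-D mice, 38.5 ± 9.60 for WT-S mice and 16.2 ± 1.68 CPM for 3xTg-S mice (SD, n = 4).

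Between WT-D and 3xTg-D, C1ql2 fell by 1.01 on the log2 scale (SE 0.13, two-sided edgeR quasi-likelihood test, adjusted p = 0.00232 over all 16475 genes). Between WT-D and 3xTg-S it fell by 1.32 (SE 0.094, edgeR adjusted p = 4.55e-05), and between WT-S and 3xTg-S it fell by 1.27 (SE 0.17, edgeR adjusted p = 0.00401). The first pair of these comparisons share the WT-D mice and the last pair share the 3xTg-S mice, so the values are not independent. Its rank by p among all tested genes was 81 for WT-D vs 3xTg-D and 19 for WT-D vs 3xTg-S. The inhibitor comparisons gave no call for this gene. The log2 fold change was -0.29 (SE 0.14, edgeR adjusted p = 0.722) between 3xTg-D and 3xTg-S and -0.046 (SE 0.16, edgeR adjusted p = 1.00) between WT-D and WT-S. The 95% interval of the former ran from -0.60 to 0.017 and that of the latter from -0.39 to 0.30. The difference between these treatment effects, the genotype by treatment interaction, was -0.25 (95% interval -0.73 to 0.24, edgeR adjusted p = 0.798). Without the mice WT-D4 and WT-S1, C1ql2 fell by 0.97 between WT-D and 3xTg-D and by 1.42 between WT-S and 3xTg-S.

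Oligodendrocyte markers also differed between WT-D and 3xTg-D. Mbp and Mobp, which encode proteins of myelin, rose in 3xTg-D, and the summed level of a list of 6 was 4267 to 5057 CPM in WT-D mice and 5531 to 6607 CPM in 3xTg-D. In 3xTg-S the summed level ranged from 4228 to 6620 CPM and overlapped that of WT-D, and 2 of the 6 genes fell (Mog and Mag, named after their values were seen, by 0.51 and by 0.42). The part of these cells in the C1ql2 result was not tested.

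C1ql2 lies on chromosome 1 (GRCm38, 120340582 to 120343174, plus strand, ENSMUSG00000036907.9), in 2 exon blocks that no other annotated gene overlaps. Amigo2, the other marker with a call, lies on chromosome 15 (97244125 to 97247287, minus strand, ENSMUSG00000048218.6) in 1 exon block. The 250 bases before each gene's annotated start are shown because these are the markers whose levels differed, with the E-box (CANNTG on either strand), the letters bound by basic helix-loop-helix factors, in capitals. They are RefSeq sequences on GRCm38.p6 at chr1:120340332-120340581 (plus strand) and chr15:97247288-97247537 (minus strand).
C1ql2: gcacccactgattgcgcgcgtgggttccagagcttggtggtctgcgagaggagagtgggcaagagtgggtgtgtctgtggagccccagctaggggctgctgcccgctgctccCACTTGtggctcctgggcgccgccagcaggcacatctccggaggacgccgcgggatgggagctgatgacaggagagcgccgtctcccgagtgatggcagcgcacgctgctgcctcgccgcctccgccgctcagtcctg
Amigo2: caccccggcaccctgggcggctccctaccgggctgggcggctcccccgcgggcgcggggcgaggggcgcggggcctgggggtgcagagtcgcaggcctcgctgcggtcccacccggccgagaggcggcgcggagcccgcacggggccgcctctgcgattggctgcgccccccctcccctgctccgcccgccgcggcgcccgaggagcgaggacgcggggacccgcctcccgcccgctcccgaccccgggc
The C1ql2 window held 1 E-box, which began 138 bases before the start, and the Amigo2 window held none. Over the 11 windows of the 9 markers with an entry (all except Rgs14), 4 windows held an E-box, namely those of Prox1, C1ql2, Wfs1 and Mpped1, which is 36.4%, against 66.2% of 32851 promoter windows of the same length. The letters TGACG, the core of the cAMP response element, were in the windows of Trpc6 and Fibcd1, 18.2% of the 11, against 17.8% of all. The letters TATAAA were in 1 of the 11 windows, of Prox1, against 12.4% of all. All 3 motifs were searched on both strands, and the matches in Fibcd1 (TGACG) and Prox1 (TATAAA) lay on the strand opposite to the gene. These are matches of letters only. The C1ql2 window was 68.8% G and C, and the Amigo2 window 84.0%.

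The other 3 granule cell markers were not called in any comparison. Prox1, the homeobox transcription factor that sets granule cell identity, had 136, 117, 117 and 155 CPM in WT-D mice and 112, 108, 116 and 123 CPM in 3xTg-D. The WT-S mice had 108, 136, 112 and 155 CPM, and the 3xTg-S mice 135, 97.1, 116 and 119 CPM. The groups overlapped. The log2 fold change was -0.19 (95% interval -0.39 to 0.0073, edgeR adjusted p = 0.418) in WT-D vs 3xTg-D, -0.19 (-0.44 to 0.060) in WT-D vs 3xTg-S and -0.15 (-0.43 to 0.14) in WT-S vs 3xTg-S. The log2 fold changes of C1ql2 in the same comparisons, -1.01, -1.32 and -1.27, lay below these intervals. Whether the number of granule cells differed was not tested.

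Dsp encodes desmoplakin, which anchors intermediate filaments at desmosomes. Its mean levels were 52.1 ± 14.4 CPM for WT-D mice, 49.5 ± 7.09 for 3xTg-D mice, 43.8 ± 14.2 for WT-S mice and 50.9 ± 7.41 CPM for 3xTg-S mice (SD, n = 4). It was the most scattered marker within groups, with a within-group SD of 0.33 on the log2 scale. Its extremes were the choroid-plexus-high mice, WT-D4 with 72.5 CPM as the highest of 16 and WT-S1 with 29.5 CPM as the lowest. The log2 fold change between WT-D and WT-S was -0.25 (95% interval -0.75 to 0.25, edgeR adjusted p = 1.00) and turned to 0.093 without these mice. Trpc6, a cation channel gated by diacylglycerol, stayed between 17.4 and 29.3 CPM, with group means of 26.1 ± 2.36 CPM for WT-D mice, 24.6 ± 1.37 for 3xTg-D mice, 24.9 ± 3.20 for WT-S mice and 24.9 ± 5.15 CPM for 3xTg-S mice (SD, n = 4). Its log2 fold change in WT-D vs 3xTg-D was -0.085 (95% interval -0.25 to 0.082, edgeR adjusted p = 0.696).

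Expressed against Prox1 of the same mouse, C1ql2 was at 28.1% to 32.1% of the Prox1 CPM in WT-D mice and 24.2% to 36.4% in WT-S. In 3xTg-D this ratio was 13.8% to 23%, and in 3xTg-S 12.8% to 14.9%. The genotypes were again separate, by a narrow gap between 23% in 3xTg-D2 and 24.2% in WT-S1. Of 10 other granule cell genes, at the threshold of 0.01 used for all calls here, edgeR called 1 lower in WT-D vs 3xTg-D, 2 lower in WT-D vs 3xTg-S, and 0 in each of the others (at an unadjusted p under 0.05, 1 in WT-S vs 3xTg-S and 0 in the rest). Lct, the lactase gene, fell by 0.42 (SE 0.11, edgeR adjusted p = 0.0934) and fell by 0.53 (SE 0.12, adjusted p = 0.0579) on the log2 scale. Stxbp6, which binds SNARE proteins, fell by 0.23 in WT-D vs 3xTg-S (SE 0.067, edgeR adjusted p = 0.145). The median log2 fold change of the 10 was -0.15 for WT-D vs 3xTg-D, -0.22 for WT-D vs 3xTg-S and -0.048 for WT-S vs 3xTg-S. Calb1 (calbindin) and C1ql3, the close relative of C1ql2, were the most abundant of the 10, at 187 to 257 and 146 to 179 CPM over the 16 mice, and were not called in any comparison.

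None of the CA1 markers was called by edgeR. Wfs1, which encodes wolframin of the endoplasmic reticulum, had 90.4, 97.9, 108 and 101 CPM in WT-D mice and 73.9, 86.2, 78.3 and 95.9 CPM in 3xTg-D. The mouse 3xTg-D4 overlapped the WT-D range. The WT-S mice had 66.4, 94.1, 101 and 122 CPM and the 3xTg-S mice 66.9, 89.1, 68.7 and 101 CPM, with wide overlap. The log2 fold change was -0.25 (SE 0.084, edgeR adjusted p = 0.242) in WT-D vs 3xTg-D, -0.30 (SE 0.13, adjusted p = 0.335) in WT-D vs 3xTg-S and -0.24 (SE 0.18, adjusted p = 0.689) in WT-S vs 3xTg-S. None passed the threshold of 0.01. The first passed it without WT-D1 (-0.29) or 3xTg-D4 (-0.33) and with DESeq2 or without the filter on low counts (-0.25 each), and the WT-D vs 3xTg-S difference passed it without 3xTg-S4 (-0.42) or without that filter (-0.31).

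Mpped1, a metallophosphoesterase gene, had 154, 162, 164 and 155 CPM in WT-D, a narrow range, and 162, 197, 179 and 165 CPM in 3xTg-D. The WT-S mice had 163, 181, 179 and 176 CPM and the 3xTg-S mice 147, 223, 173 and 194 CPM. The groups overlapped. Its log2 fold changes were 0.15 (SE 0.067, edgeR adjusted p = 0.405) in WT-D vs 3xTg-D, 0.20 (SE 0.11, adjusted p = 0.486) in WT-D vs 3xTg-S and 0.14 (SE 0.055, adjusted p = 1.00) in WT-D vs WT-S. Without 3xTg-S1 the WT-D vs 3xTg-S value was 0.29, past the threshold of 0.01. Fibcd1, a transmembrane receptor that binds acetylated sugars, had means of 94.8 ± 4.32 CPM for WT-D mice, 97.2 ± 3.77 for 3xTg-D mice, 103 ± 13.4 for WT-S mice and 104 ± 22.7 CPM for 3xTg-S mice (SD, n = 4). Its log2 fold change in WT-D vs WT-S was 0.13 (95% interval -0.063 to 0.31, edgeR adjusted p = 1.00).

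As a share of Mpped1 in the same mouse, Wfs1 was at 58.7% to 65.5% of the Mpped1 CPM in WT-D mice. The range was 43.7% to 58.1% for 3xTg-D mice, 40.8% to 69.3% for WT-S mice and 39.8% to 52.2% for 3xTg-S mice. The vehicle groups did not overlap in this ratio, while the inhibitor groups did. Among 7 other CA1 genes, 1 rose and 0 fell in each of the 3 comparisons of genotypes. It was Spink8, a serine protease inhibitor, with 9.28 ± 0.415 CPM in WT-D mice and 20.2 ± 3.16 for 3xTg-D mice (SD, n = 4). Its log2 fold change was 1.13 (SE 0.11, edgeR adjusted p = 0.000453) in WT-D vs 3xTg-D, 1.28 (SE 0.15, adjusted p = 0.00167) in WT-D vs 3xTg-S and 1.26 (SE 0.23, adjusted p = 0.0231) in WT-S vs 3xTg-S. The median log2 fold change of the 7 was 0.014, 0.23 and 0.18 in these comparisons. Man1a and Gpr161, the most abundant of the 7, were not called.

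Of the CA2 markers, Amigo2, an adhesion molecule with leucine-rich repeats, was higher in 3xTg-S than in WT-D. It had 25.3, 23.4, 24.7 and 26.2 CPM in WT-D mice and 29.1, 31.4, 35.4 and 27.8 CPM in 3xTg-S. All 3xTg-S mice lay above all WT-D mice. The 3xTg-D mice had 31.4, 24.5, 28.7 and 31.1 CPM and the WT-S mice 29.8, 25.0, 23.1 and 25.8 CPM. Each of these groups overlapped WT-D. Amigo2 rose by 0.29 on the log2 scale (SE 0.083, edgeR adjusted p = 0.128), past the unadjusted threshold of 0.01, in WT-D vs 3xTg-S. The call was lost without WT-D1, WT-D2, WT-D3 or 3xTg-S3, the fold change staying between 0.23 and 0.31. The log2 fold change was 0.22 (SE 0.082, edgeR adjusted p = 0.306) in WT-D vs 3xTg-D and 0.24 (SE 0.10, adjusted p = 0.447) in WT-S vs 3xTg-S. The former was 0.29 without 3xTg-D2 and 0.32 with the share of reads outside genes as covariate, past the threshold in both. Exons of Amigo2 share 58 bases with Pced1b on the opposite strand, and the strand setting of the counting is not stated, so its counts are uncertain to that extent.

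Rgs14, a scaffold of G protein signaling that restrains synaptic plasticity in CA2, had means of 69.0 ± 4.61 CPM for WT-D mice, 75.2 ± 5.29 for 3xTg-D mice, 71.3 ± 5.43 for WT-S mice and 69.0 ± 19.8 CPM for 3xTg-S mice (SD, n = 4). The wide SD of 3xTg-S came with 53.1, 97.6, 65.8 and 59.5 CPM, 1 mouse (3xTg-S2) being the highest of all 16 and another (3xTg-S1) the lowest. Its log2 fold change was 0.13 (SE 0.068, edgeR adjusted p = 0.496) in WT-D vs 3xTg-D and -0.12 (SE 0.16, adjusted p = 0.835) in 3xTg-D vs 3xTg-S. Without 3xTg-S2 the latter was -0.34, past the threshold of 0.01. Pcp4, a small calmodulin-binding protein, had means of 14.5 ± 1.68 CPM for WT-D mice, 14.8 ± 1.31 for 3xTg-D mice, 15.4 ± 3.44 for WT-S mice and 13 ± 2.64 CPM for 3xTg-S mice (SD, n = 4). The groups overlapped, and its log2 fold change was -0.17 (95% interval -0.50 to 0.15) in WT-D vs 3xTg-S and -0.26 (-0.66 to 0.14) in WT-S vs 3xTg-S. Exons of Pcp4 share 191 bases with Igsf5 on the same strand, those of Prox1 share 133 with Prox1os and those of Dsp 499 with Gm10129, both on the opposite strand. Reads in these stretches cannot be assigned with certainty. Among 6 other CA2 genes, Avpr1b, the vasopressin 1b receptor, rose by 0.97 (SE 0.24, edgeR adjusted p = 0.0872) in WT-D vs 3xTg-D at a low level of at most 1.14 CPM. In the other comparisons edgeR called 0 of the 6, also at an unadjusted p under 0.05.

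Over the 9 not called in WT-D vs 3xTg-D, log2 fold changes ran from -0.25 (Wfs1) to 0.22 (Amigo2), and their 95% intervals reached from -0.45 to 0.40. Over the 8 not called in WT-D vs 3xTg-S they ran from -0.30 (Wfs1) to 0.20 (Mpped1), with intervals from -0.58 to 0.44. Over the 9 not called in WT-S vs 3xTg-S they ran from -0.26 (Pcp4) to 0.24 (Amigo2), with intervals from -0.66 to 0.63. In 3xTg-D vs 3xTg-S, log2 fold changes of all 10 ran from -0.29 (C1ql2) to 0.10 (Fibcd1), with intervals from -0.60 to 0.39. In WT-D vs WT-S they ran from -0.25 (Dsp) to 0.14 (Mpped1), with intervals from -0.75 to 0.44. In the interaction they ran from -0.28 (Pcp4) to 0.29 (Dsp), with intervals from -0.75 to 0.90.

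Group membership took up 86.7% of the variance of C1ql2 among the 16 mice on the log2 scale and 50.2% of that of Amigo2. For the other 8 markers the share was 3.98% (Trpc6) to 24.3% (Mpped1). The spread of most markers thus lay within groups. Of the variance within groups, the share that went with replicate number ran from 15.6% (C1ql2) to 67.5% (Wfs1). Group means and replicate means each take up some variance in any data, so these shares alone do not show an effect. The labels do not tie the replicate number to a litter or day.

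Balance between the subfields was described by the difference of mean log2 CPM between marker sets in each mouse, with no test. For the 4 dentate markers minus the 3 CA1 markers it averaged -1.16 for WT-D mice, -1.47 for 3xTg-D mice, -1.33 for WT-S mice and -1.55 for 3xTg-S mice. The vehicle groups did not overlap, running from -1.32 to -0.92 in WT-D and from -1.56 to -1.36 in 3xTg-D. The inhibitor groups overlapped, running from -1.45 to -1.23 in WT-S and from -2.10 to -1.07 in 3xTg-S. Without C1ql2 the same difference averaged -1.04, -1.12, -1.22 and -1.13, and all groups overlapped. C1ql2 was the marker called in these same mice, so leaving it out narrows the gap between the vehicle groups by construction. The CA2 minus CA1 difference averaged -1.97 for WT-D mice, -1.82 for 3xTg-D mice, -1.97 for WT-S mice and -1.94 for 3xTg-S mice. In 3xTg-S the dentate minus CA1 difference, C1ql2 left out, ran from -1.71 in 3xTg-S2 to -0.63 in 3xTg-S1.

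**Figure D3:**
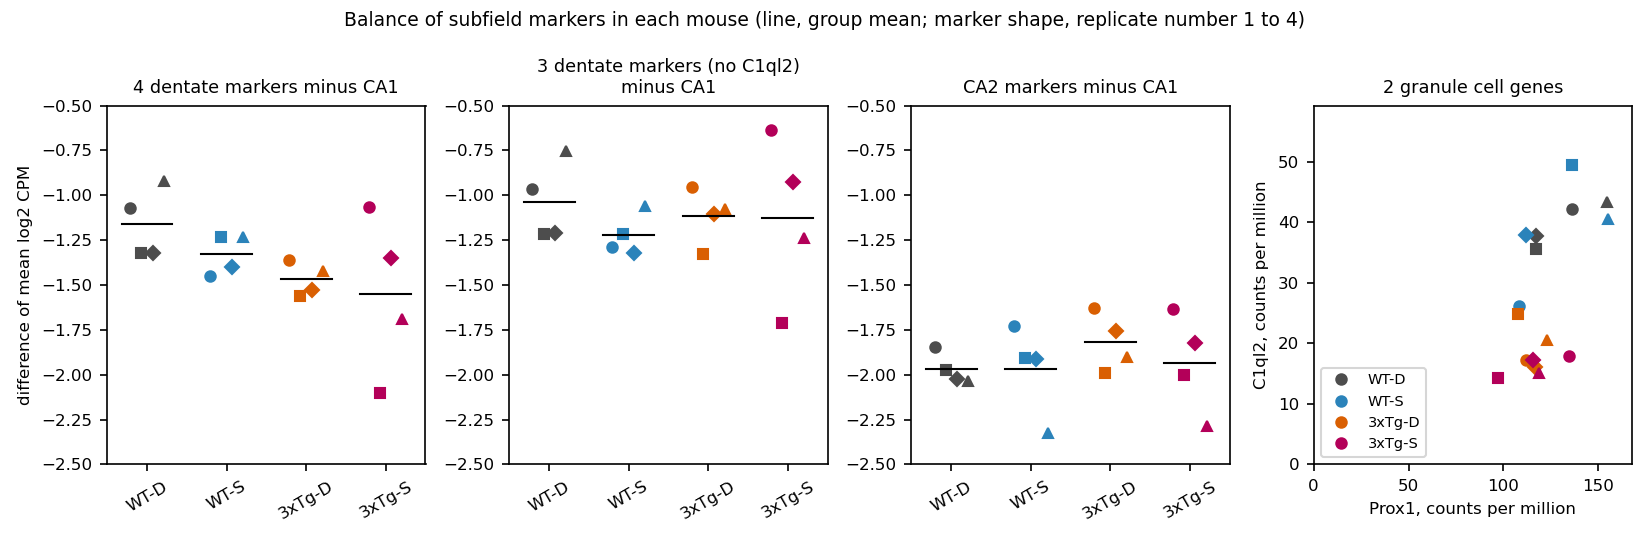
Differences of mean log2 CPM between subfield marker sets (y axes) in each mouse by group, and C1ql2 against Prox1 CPM (right panel). The gap between the vehicle groups in the first panel closes when C1ql2 is left out (second panel), where group means lie between -1.22 and -1.04. C1ql2 was the marker called in these same mice, so leaving it out narrows that gap by construction.

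3xTg-S2 and 3xTg-S1 stood at opposite ends. 3xTg-S2 had the lowest Prox1 (97.1 CPM), Trpc6 (17.4 CPM) and C1ql2 (14.3 CPM) of all 16 mice and the highest Fibcd1 (134 CPM), Mpped1 (223 CPM) and Rgs14 (97.6 CPM). 3xTg-S1 had the lowest Fibcd1 (78.6 CPM), Mpped1 (147 CPM) and Rgs14 (53.1 CPM). These mice had 7.82% and 12.8% of reads outside genes, and the part of that measure in their levels was not tested.

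Over 45 pairs of markers, with group means removed from log2 CPM, the median Pearson's r across 16 mice was 0.53 for the 12 pairs within a subfield and -0.10 for the 33 pairs between subfields. All 6 dentate pairs were positive, from 0.33 to 0.84, and so were the 3 CA1 pairs, from 0.53 to 0.78. The CA2 pairs ran from -0.33 to 0.11. A single pair passed an adjusted p of 0.05 over the 45, Prox1 and Dsp (r = 0.84, permutation p = 0.00075, adjusted p = 0.0337). Spearman's rho of this pair was 0.81 (permutation p = 0.00266, adjusted p = 0.117), and r was 0.81 without the 2 mice farthest from the median of Prox1. Fibcd1 and Mpped1 had r = 0.78 (permutation p = 0.0245, adjusted p = 0.276; rho 0.51, permutation p = 0.0802, adjusted p = 0.451), which dropped to 0.28 without the 2 mice farthest in Fibcd1, so it rested on them. Fibcd1 and Rgs14, which mark different fields, had r = 0.75 (permutation p = 0.0612, adjusted p = 0.393; rho 0.44, permutation p = 0.139, adjusted p = 0.571), and 0.12 without the same mice. C1ql2, with its group means removed, correlated with Prox1 at r = 0.53 (permutation p = 0.0607, adjusted p = 0.393; rho 0.65, permutation p = 0.0159, adjusted p = 0.239), and 0.52 without the 2 mice farthest in Prox1.

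**Figure D4:**
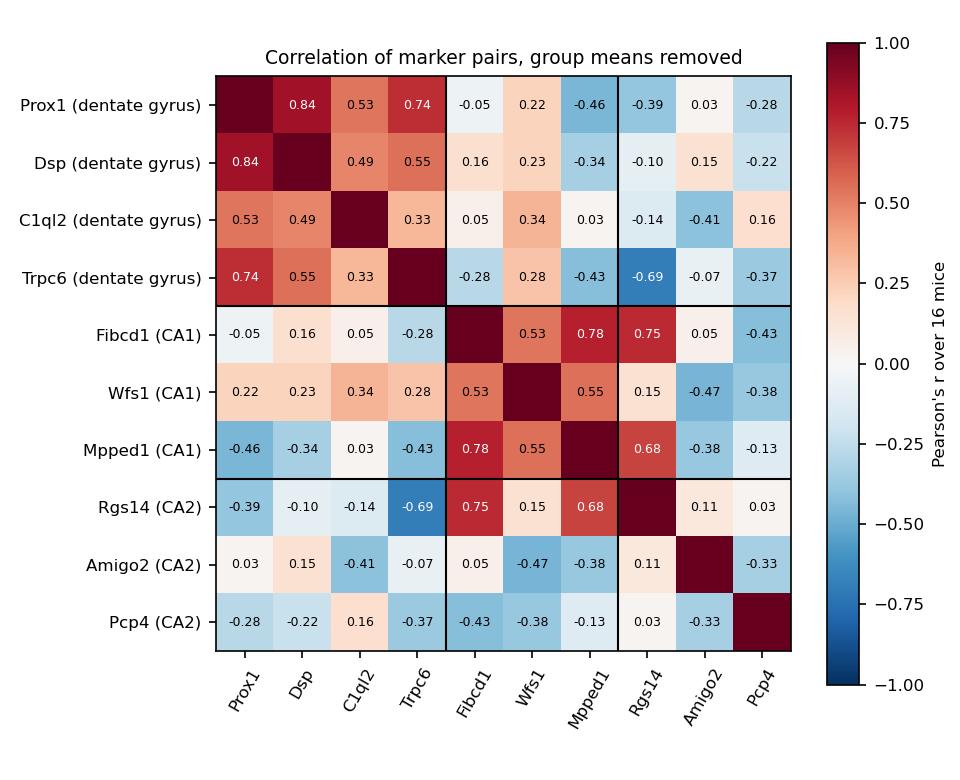
Pearson's r of each pair of markers over 16 mice after removal of group means (color, from -1 to 1), with black lines between the subfields. The dentate block is positive throughout, at 0.33 to 0.84, and the CA2 block runs from -0.33 to 0.11.

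Genes outside the marker set whose log2 CPM moved most like a marker over the 16 mice, with group means removed, are given as a description. For Prox1 they were Wnk4 (r = 0.93), Tiam1 (0.92) and Mapk7 (0.90). For C1ql2 they were Nup62 (r = 0.90), Sgsm2 (0.87) and Mospd3 (0.87), and for Dsp Dyrk1b (0.89), Vwa3b (0.89) and Atrip (0.85). For Trpc6 they were Gm37303 (r = 0.95), Prtg (0.94) and Tgds (0.94). CA1 markers were followed by Acvr1b (0.89) and Fam171a1 (0.89) for Fibcd1, by Cdr2l (0.89), Phf24 (0.88) and Elavl3 (0.85) for Wfs1, and by Inafm2 (0.98), Rhbdl3 (0.96) and Gfod1 (0.92) for Mpped1. CA2 markers were followed by Rasd1 (0.95), Rap2b (0.94) and Hunk (0.93) for Rgs14, by Gphn (0.85), Gm6712 (0.83) and Ccdc180 (0.82) for Amigo2, and by Tbca (0.95), Rras (0.92) and Bex3 (0.92) for Pcp4. Each r is among the 3 highest of the tested genes and comes from the same 16 libraries, so depth and composition are shared.

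Neighbouring fields and tissue were read from the same libraries. Of 9 CA3 genes, 0 rose and 1 fell in WT-D vs 3xTg-D (St18, which fell by 0.22, SE 0.055, edgeR adjusted p = 0.0894). In WT-S vs 3xTg-S, Npy2r, a receptor of neuropeptide Y, rose by 0.27 (SE 0.078, edgeR adjusted p = 0.165) and Bok, named after its value was seen, fell by 0.58 (SE 0.19, adjusted p = 0.232). Of 6 genes of hilar mossy cells, edgeR called 0 in each comparison, also at an unadjusted p under 0.05. Of 5 subiculum genes, 1 rose in WT-D vs 3xTg-S and in WT-S vs 3xTg-S, in both cases Tshz2 (0.62 and 0.62, SE 0.17 and 0.18, edgeR adjusted p = 0.115 and adjusted p = 0.157). All 5 had positive log2 fold changes in WT-S vs 3xTg-S, from 0.10 to 0.62. Their summed level was 158 to 199 CPM in WT-S and 206 to 260 CPM in 3xTg-S, without overlap. The vehicle groups overlapped, at 168 to 219 CPM in WT-D and 136 to 227 CPM in 3xTg-D. The part of dissection in this difference was not tested. Of 7 genes enriched in the ventral hippocampus, 1 rose in each of the 3 comparisons of genotypes, Lypd1, an inhibitor of nicotinic receptors, with 105 ± 5.23 CPM in WT-D mice and 170 ± 17.3 CPM in 3xTg-D (SD, n = 4; log2 fold changes 0.70, 0.68 and 0.56, edgeR adjusted p at most 0.00487). The median of the 7 was 0.048, 0.13 and 0.41.

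For tissue next to the hippocampus, 1 of 7 thalamus genes rose in WT-D vs 3xTg-D as well as WT-D vs 3xTg-S (Synpo2, 0.58 and 0.35, edgeR adjusted p = 0.0183 and adjusted p = 0.164). Of 7 neocortex genes, 1 rose in WT-S vs 3xTg-S (Tbr1, 0.37, edgeR adjusted p = 0.0577), and it also passed in the interaction (0.43, SE 0.13, adjusted p = 0.788). The summed level of the 7 was 150 to 162 CPM in WT-S and 166 to 189 CPM in 3xTg-S, without overlap. The vehicle groups overlapped, at 150 to 170 CPM in WT-D and 152 to 175 CPM in 3xTg-D. The part of dissection in this difference was not tested. Of 6 striatum genes, 1 fell in each comparison of genotypes (Rgs9, with log2 fold changes of -0.82, -0.79 and -0.55). Of 6 tested choroid plexus genes, 1 fell in WT-D vs 3xTg-D as well as WT-D vs 3xTg-S (Ttr, with log2 fold changes of -4.89 and -5.88), where WT-D4 was a control. Of 6 interneuron genes, 2 rose in WT-D vs 3xTg-D as well as WT-D vs 3xTg-S (Vip, by 0.56 and 0.46, and Lhx6, by 0.29 and 0.41 on the log2 scale), and Lhx6 rose in WT-D vs WT-S (0.27, edgeR adjusted p = 1.00). Of 7 endothelial and meningeal genes, 2 fell in WT-D vs 3xTg-S (Slc6a13 and Col1a2, with log2 fold changes of -1.09 and -0.98). In 3xTg-D vs 3xTg-S, 2 of 6 oligodendrocyte genes fell (Mag and Cnp, named after their values were seen, with log2 fold changes of -0.42 and -0.44), and none of the other lists had a gene past 0.01 there.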

How the data were processed

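RNA of whole hippocampi of 16 female mice, 4 per group, was sequenced, 1 library per mouse. The authors trimmed reads with Trimmomatic 0.35, aligned them with STAR 2.5.1b to GRCm38 (Gencode M23) and deposited 1 raw, unnormalized count per gene and mouse. Whether counting used strand, or collapsed molecular identifiers, is not given in the sources used here. No libraries of a group were copies, with a chi-square per degree of freedom of 3.80 to 45.5.

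Genes were filtered by filterByExpr (minimum count 10, minimum total 15) in edgeR 4.0.16 under R 4.3.3, which normalized by TMM and compared groups pairwise by its quasi-likelihood test (two-sided). The study's threshold, an unadjusted p of at most 0.01, defined a call. Log2 CPM used a prior count of 2. Fold changes no larger than their SE are given as ranges, except for C1ql2 and for Rgs14 in 3xTg-D vs 3xTg-S. Marker pairs were tested by permutation within groups (100000 resamples, two-sided). Pairwise fits and correlations were tested on simulated data. The members and lists were chosen with earlier results of these data known, and no value is adjusted over a list alone. From the other lists, the 2 most abundant genes and the 2 with the smallest p among called genes could be named. Each marker's 3 most similar genes were named, except that some items are not reported here. Promoter sequences are from RefSeq.

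Mice share replicate numbers, which the labels do not tie to a litter or day. Deviations of same-numbered mice correlated by at least 0.11 in every pair of WT-D vs WT-S, which met the criterion for pairing of over 0.1 in every pair, and less in some pairs of the other comparisons (lowest -0.10). The WT-D vs WT-S fold changes, SEs and intervals given above still come from the fit without pairing. Alternatives were median-ratio size factors, DESeq2 1.42.0 (likelihood ratio test) with or without 3 DEGES iterations, no low-count filter, at least 10 counts in every mouse, all 16 mice in 1 fit, a replicate block, the share of reads outside genes as covariate, the adjusted threshold, each mouse left out, and, chosen after the data were seen, leaving out WT-D4 and WT-S1.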

Additional observations from a re-analysis of the deposited data

Results flagged for a closer look

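Within groups of 4 mice, 40 sets of marker levels and 36 sets of other per-mouse measures were searched for a mouse far from the rest of its group, which chance alone gives in about 1 in 20 sets. Pcp4 was low in 3xTg-D4, at 12.9 CPM against 15.2 to 15.6 CPM in the other 3xTg-D mice, a gap of 0.874 of the group's range. Wfs1 as a share of Mpped1 was high in 3xTg-D4, at 58.1% against 43.7% to 45.7%, a gap of 0.864 of the range. These were the 2 flags among the 76 sets.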

How the results depend on the processing

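C1ql2 kept its call in all 3 comparisons of genotypes under every alternative run. Of the 60 fold changes (10 markers, 6 tests), 32 changed sign under at least 1 alternative, none of them called and none over 0.29 in size. With the mice left out in turn, markers called ranged from 1 to 2 in WT-D vs 3xTg-D, from 1 to 3 in WT-D vs 3xTg-S and from 0 to 1 in 3xTg-D vs 3xTg-S and in the interaction, where Rgs14 was called without 3xTg-S2. In WT-D vs 3xTg-D, 2 markers were called with DESeq2, with DEGES and without the filter (C1ql2 and Wfs1) and with the covariate (C1ql2 and Amigo2). Of all 16475 tested genes, 870 were called there with DESeq2, 870 with DEGES and 748 with the covariate, against 809 in the main fit. Without the filter it was 1170 of 33942 genes. In simulated data, 0.971% of unchanged genes passed the unadjusted threshold with DESeq2, against 0.750% with pairwise edgeR. At an adjusted p of 0.05 or less, the false share of calls in those simulated data was 15.7% with DESeq2 and 3.70% with pairwise edgeR. The false share at the unadjusted threshold, which defined a call here, was not calculated. In the measured data, 1 marker was called at the adjusted threshold in WT-D vs 3xTg-S. The cause of these changes was not tested.

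With the replicate block, 3 markers were called in WT-D vs 3xTg-D (C1ql2, Wfs1 and Amigo2) and 7 marker pairs were correlated (with deviations permuted freely, an approximation), while the markers called in the other comparisons, WT-D vs WT-S included, were the same. Of all 16475 tested genes, the block fit called 944 in WT-D vs 3xTg-D, against 809 in the main fit. The number of correlated pairs was 0 with Spearman's rho and 0 to 1 with 1 mouse left out, being 0 in 10 of 16 cases.

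Between WT-D and WT-S, C1ql2 ranged from -0.19 to 0.10 with 1 mouse left out and was 0.14 without WT-D4 and WT-S1, where Dsp was 0.093 and its interaction -0.065. Rgs14 in 3xTg-D vs 3xTg-S was 0.0043 with the covariate. With 4 mice per group, intervals of markers not called reached 0.90 on the log2 scale.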
